A study of Mus musculus with 5 samples.

Results

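The genes of matrix breakdown and crosslinking were examined in kidney cortex of *Fnip1* null mice. Members were all genes whose symbol belongs to the matrix metalloproteinases (*Mmp*, 23 genes), the tissue inhibitors of metalloproteinases (*Timp*, 4), the ADAMTS proteases (*Adamts*, 19), the ADAMTS-like proteins (*Adamtsl*, 5) or the lysyl oxidases (*Lox*, 5), which gave 56 of the 24421 genes counted. They were chosen by name and not by their values. RNAseq was performed on 5 mice, 3 *Fnip1* null (8637, 9210 and 9121) and 2 wildtype (9055 and 9056), all on the C57BL6J strain, with 1 library per mouse. The labels give the genotypes as *Fnip1*-/- and *Fnip1*+/+, while the text of the study describes the sequenced controls as *Fnip1*+/- and counts more of them than the 2 analysed here. The number of mouse 9210 is the label's, and its count table carries the same digits in another order. The null allele came from ENU mutagenesis and is carried by every cell of the animal. The study describes adult animals, and the labels give neither age nor sex of a mouse.

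Matrix metalloproteinases are secreted or membrane-anchored zinc enzymes that cut collagens, elastin and other proteins around cells, and TIMPs bind and block their active sites. ADAMTS proteases process procollagens, proteoglycans and the components of microfibrils, and the ADAMTS-like proteins share their binding domains but lack the protease. Lysyl oxidases work in the opposite sense, since they oxidize lysines of collagen and elastin so that the fibres become crosslinked. In the kidney, interstitial fibroblasts, pericytes, macrophages and injured tubules are known sources of these proteins, and their balance sets the turnover of the interstitial matrix and the basement membranes.

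The libraries held 15799114 to 19132145 counts over genes, and 3 counts in a mouse corresponded to 0.158 to 0.186 normalized CPM (counts scaled to a common library size after TMM normalization). *Fnip1* itself had 21.0, 16.9 and 16.0 CPM in the null mice 8637, 9210 and 9121, and 51.8 and 48.7 CPM in wildtype 9055 and 9056. Cortex tubule markers were abundant in all mice, with summed levels of 13040 to 15370 CPM over 6 genes. The medullary urea transporter gene *Slc14a2* was high in 1 mouse of each genotype, with 99.8 CPM in 9121 and 81.6 CPM in 9055 against 0.825 to 16.1 CPM in the others. Mouse 9121 also stood apart in carrying 314 CPM of *Xist* and at most 0.37 CPM of each of 4 Y-linked genes, the reverse of the other 4 mice. By these genes 9121 was female and the other 4 mice were male, so the null group mixed sexes and the wildtype group did not. The median over the members and the values of several members are therefore also given without mouse 9121. All comparisons are in bulk tissue, where fewer cells of a type and less RNA per cell cannot be told apart.

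Inhibitor message dominated the group. Of the 56 members, 37 were tested, 19 were below the count filter, which asks for at least 10 counts in at least 3 mice, and 4 of those 19 (*Mmp10*, *Mmp1a*, *Mmp1b* and *Mmp21*) had no count in any mouse. On the scale of CPM per kilobase of exon, averaged over the 5 mice, *Timp3*, the inhibitor that binds to the matrix itself, had by far the highest level at 290 CPM per kb. *Timp2* followed at 21.6 CPM per kb. The highest protease was *Adamts1* at 9.45 CPM per kb and the highest crosslinking enzyme *Loxl1* at 7.19 CPM per kb. The leading metalloproteinases were the gelatinase *Mmp2* (2.85 CPM per kb), *Mmp23* (2.70 CPM per kb) and the membrane-anchored *Mmp14* (2.69 CPM per kb), which lay close together. The *Timp3* value is uncertain to the extent that 21.3% of its exon sequence overlaps *Syn3*, in which it is nested, and the library kit does not mark strand.

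**Figure D1:**
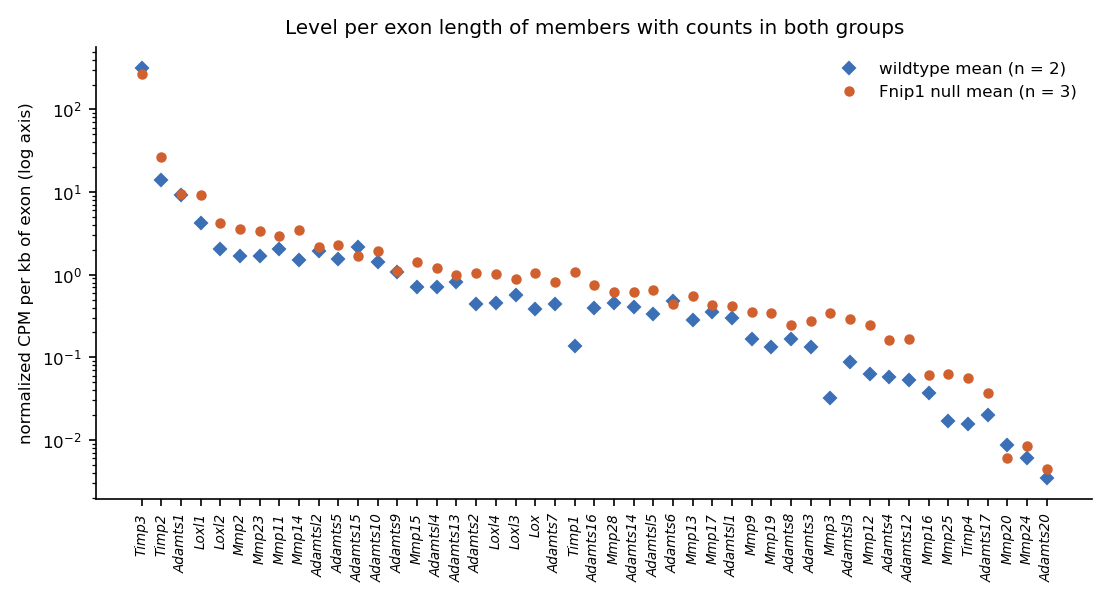
Mean level of 47 members with counts in both groups, in normalized CPM per kb of exon on a log axis, in wildtype (diamonds, n = 2) and *Fnip1* null (circles, n = 3) mice, ordered by level. *Timp3* stands more than 1 decade above every other member, and most circles lie above their diamonds, with *Timp3* among the exceptions.

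No member passed an FDR of 5% in edgeR's quasi-likelihood test (0 of 37), where 0.678% of the 13874 genes tested did, 0.526% higher in null mice. At an unadjusted p of 0.05 or below, 21 members were higher in *Fnip1* null and 0 were lower, against 14% of all genes higher and 11.2% lower. At an FDR of 10% there were 6 members, all with higher values in null mice, against 4.15% of all genes in that direction. These were *Mmp15*, *Mmp23*, *Loxl1*, *Loxl2*, *Adamtsl3* and *Mmp12*. The log2 fold change was above 0 for 34 of the 37 members tested, against 50.5% of all genes, and its median was 0.93 against 0.0035 over all genes. Without mouse 9121 the median of these members was 0.76, with 32 of 37 above 0. In 25 of the 37 members all 3 null mice lay above both wildtype mice, where 22.9% of all genes did, and in 0 members did they all lie below, where 23% of all genes did. The filter can be met by the 3 null mice alone but not by the 2 wildtype mice. Among members with at least 10 counts in all 5 mice, 20 of 31 had all null mice above both wildtype mice, against 22% of such genes.

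Other tests on the same counts gave calls in 1 direction. edgeR's exact test put 10 members past an FDR of 5%, all higher in null mice (6.18% of all genes were called higher by it). These were *Lox*, *Loxl1*, *Loxl2*, *Mmp12*, *Mmp14*, *Mmp15*, *Mmp23*, *Timp2*, *Adamts7* and *Adamtsl3*. DESeq2 called the same members except *Adamts7*, so 9 members, against 6.26% of all genes called higher. The likelihood ratio test called 11, adding *Adamts12* to the exact test's members (6.81% of all genes). The quasi-likelihood count moved with the null mouse left out: it was 16 of 39 members without mouse 8637, where 10% of all genes were called higher, and 0 without 9210 (0% of all genes) or without 9121 (0.887%). By the exact test it was 21 without 8637 (14.1% of all genes), 3 without 9210 (2.19%) and 10 without 9121 (4.97%), and DESeq2 without 9121 called 3 (3.32%). Of the exact test's calls, *Lox*, *Mmp14* and *Adamts7* were lost without 9121, and *Adamtsl4*, *Mmp7* and *Timp1* were gained. With a null mouse left out, the filter still allowed 2 mice under 10 counts. The 2 null mice left could then meet it alone, as could the 2 wildtype mice. *Mmp7* and *Timp1* entered through the null mice alone without 9121. *Mmp3* did so without 8637 and was among the 16. For a lone gene, exactly permuting 3 mice against 2 allows no p under 0.1, so the tests rest on sharing the spread across genes. Nothing in the labels says how the mice relate to each other, and p-values measure the spread between these 5 animals.

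**Figure D2:**
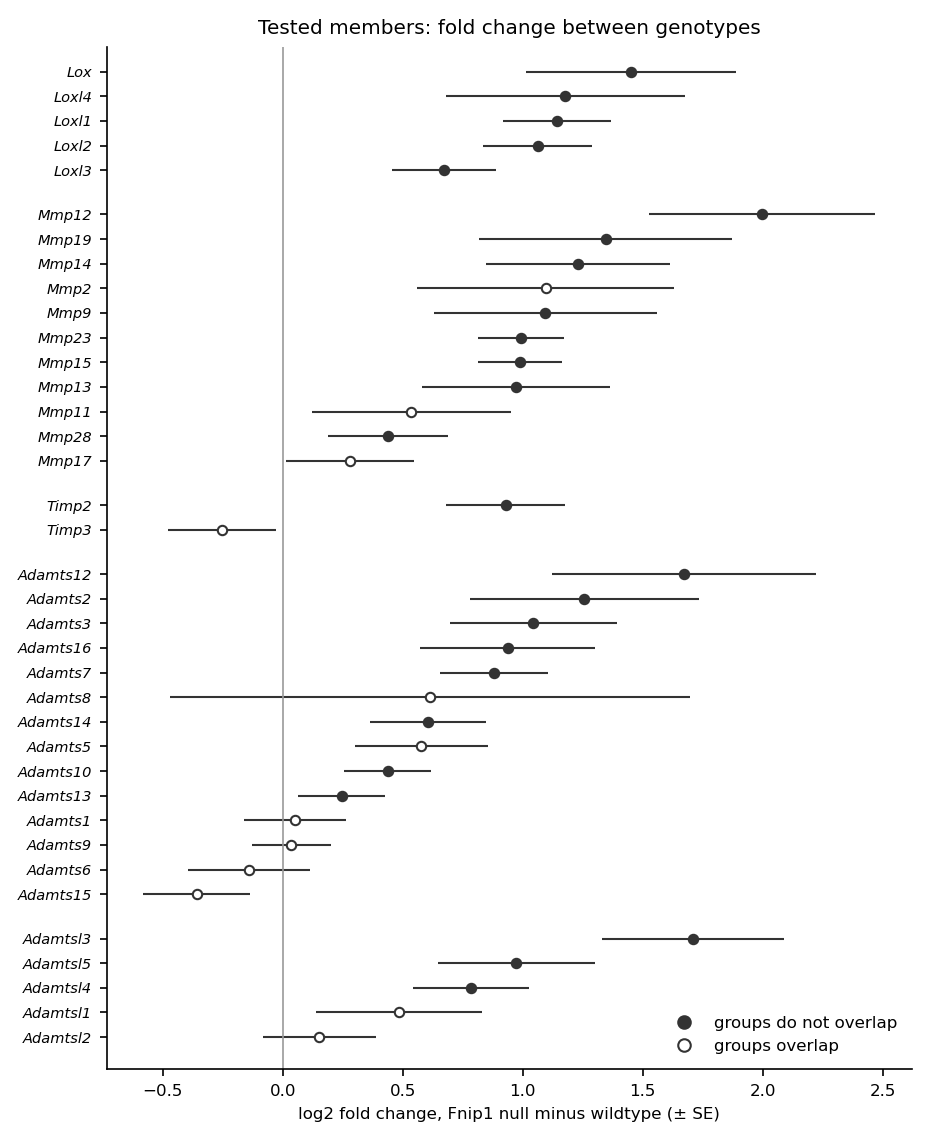
Log2 fold change, *Fnip1* null minus wildtype, with its SE from edgeR's quasi-likelihood fit, for the 37 members tested, by family. Filled points mark members whose groups do not overlap, and all 5 lysyl oxidases are filled and above 0 while *Timp3* is open and below it.

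The lysyl oxidases were the most even family. In all 5 the groups did not overlap and null mice were higher, as in 22.9% of all genes tested. The family's summed level was 52.1, 77.1 and 70.5 CPM in the null mice 8637, 9210 and 9121. In wildtype 9055 and 9056 it was 36.1 and 25.9 CPM. *Loxl1* (chr9:58287738-58313186, minus strand, GRCm38), needed for elastic fibre deposition, had 24.8, 35.1 and 31.2 CPM in null and 16.4 and 11.1 CPM in wildtype mice. The lowest null mouse, 8637, was thus still above the higher wildtype mouse. Its log2 fold change was 1.14 ± 0.22 (SE; edgeR quasi-likelihood adjusted p = 0.0719, exact test adjusted p = 0.000468). Without mouse 9121 the log2 fold change was 1.12, with a quasi-likelihood adjusted p of 0.0764.

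*Loxl2* (chr14:69609068-69695834, plus strand), which crosslinks basement membrane collagen, had 18.3, 26.5 and 23.8 CPM in null and 12.9 and 8.98 CPM in wildtype mice. The order of the mice was that of *Loxl1*, with 9210 highest, 8637 lowest of the null mice and 9056 lowest of all. Its log2 fold change was 1.06 ± 0.23 (edgeR quasi-likelihood adjusted p = 0.0791). *Lox*, the founding enzyme of the family, had 2.89, 7.31 and 4.81 CPM in null and 2.11 and 1.54 CPM in wildtype mice, a log2 fold change of 1.45 ± 0.44 (quasi-likelihood adjusted p = 0.124, DESeq2 adjusted p = 0.0326). Mouse 9210 was far above the others, and 8637 was close to wildtype 9055.

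*Loxl3*, another collagen and elastin crosslinker, had 3.77, 4.64 and 3.96 CPM in null and 2.36 and 2.80 CPM in wildtype mice, a log2 fold change of 0.67 (edgeR quasi-likelihood adjusted p = 0.138). *Loxl4* had 2.36, 3.63 and 6.76 CPM in null and 2.30 and 1.49 CPM in wildtype mice. Here mouse 9121 carried much of the difference, since the log2 fold change of 1.18 ± 0.50 became 0.67 without it. In *Loxl3*, 11.6% of the exon sequence overlaps *Htra2*.

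Among the membrane-type metalloproteinases tested, *Mmp14* and *Mmp15* had non-overlapping groups and *Mmp17* overlapping ones, with a log2 fold change of 0.28 ± 0.27. *Mmp15* (chr8:95352268-95375080, plus strand), a membrane-type metalloproteinase, had 6.95, 7.61 and 8.34 CPM in null and 3.98 and 3.72 CPM in wildtype mice. The groups were tight and far apart: the null mean was 7.64 ± 0.69 CPM (SD, n = 3) and the wildtype mean 3.85 ± 0.18 CPM (n = 2). *Mmp23* (chr4:155650655-155653384, minus strand), a metalloproteinase anchored by its amino-terminal segment, was as tight, with 7.07, 8.74 and 7.87 CPM in null and 3.91 and 4.004 CPM in wildtype mice. The log2 fold change was 0.99 ± 0.18 for each of these genes, with an adjusted p of 0.0651 for each in edgeR's quasi-likelihood test, the lowest among the members.

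*Mmp14* (chr14:54431612-54445364, plus strand), the membrane collagenase that together with TIMP2 activates pro-MMP2, had 11.1, 25.4 and 26.0 CPM in null and 9.75 and 8.01 CPM in wildtype mice. Mouse 8637 was near the wildtype mice and the other 2 null mice were well above. The log2 fold change was 1.23 ± 0.38 (edgeR quasi-likelihood adjusted p = 0.13, DESeq2 adjusted p = 0.0188), and it was 1.53 (quasi-likelihood adjusted p = 0.00587) without 8637 and 1.04 without 9121. *Mmp2*, the gelatinase it activates, had 6.25, 19.7 and 10.6 CPM in null and 7.70 and 3.72 CPM in wildtype mice. The groups overlapped, because 8637 was below wildtype 9055, and the log2 fold change was 1.10 ± 0.54 (quasi-likelihood adjusted p = 0.256). It was 0.56 without 9210, 0.66 without 9056 and 1.70 without 9055.

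*Mmp9* and *Mmp19* were measured at low levels. *Mmp9*, the other gelatinase, had 0.943, 1.01 and 1.85 CPM in null and 0.559 and 0.629 CPM in wildtype mice, a log2 fold change of 1.09 ± 0.46 (edgeR quasi-likelihood adjusted p = 0.205) that was 0.71 without 9121. *Mmp19* had 0.943, 1.78 and 0.951 CPM in null and 0.311 and 0.629 CPM in wildtype mice, a log2 fold change of 1.35, and 28.3% of its exon sequence overlaps other genes. The remaining 3 metalloproteinases tested (*Mmp11*, *Mmp17* and *Mmp28*) had log2 fold changes of 0.28 to 0.54, and none was called by the quasi-likelihood fit at an FDR of 5%.

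**Figure D3:**
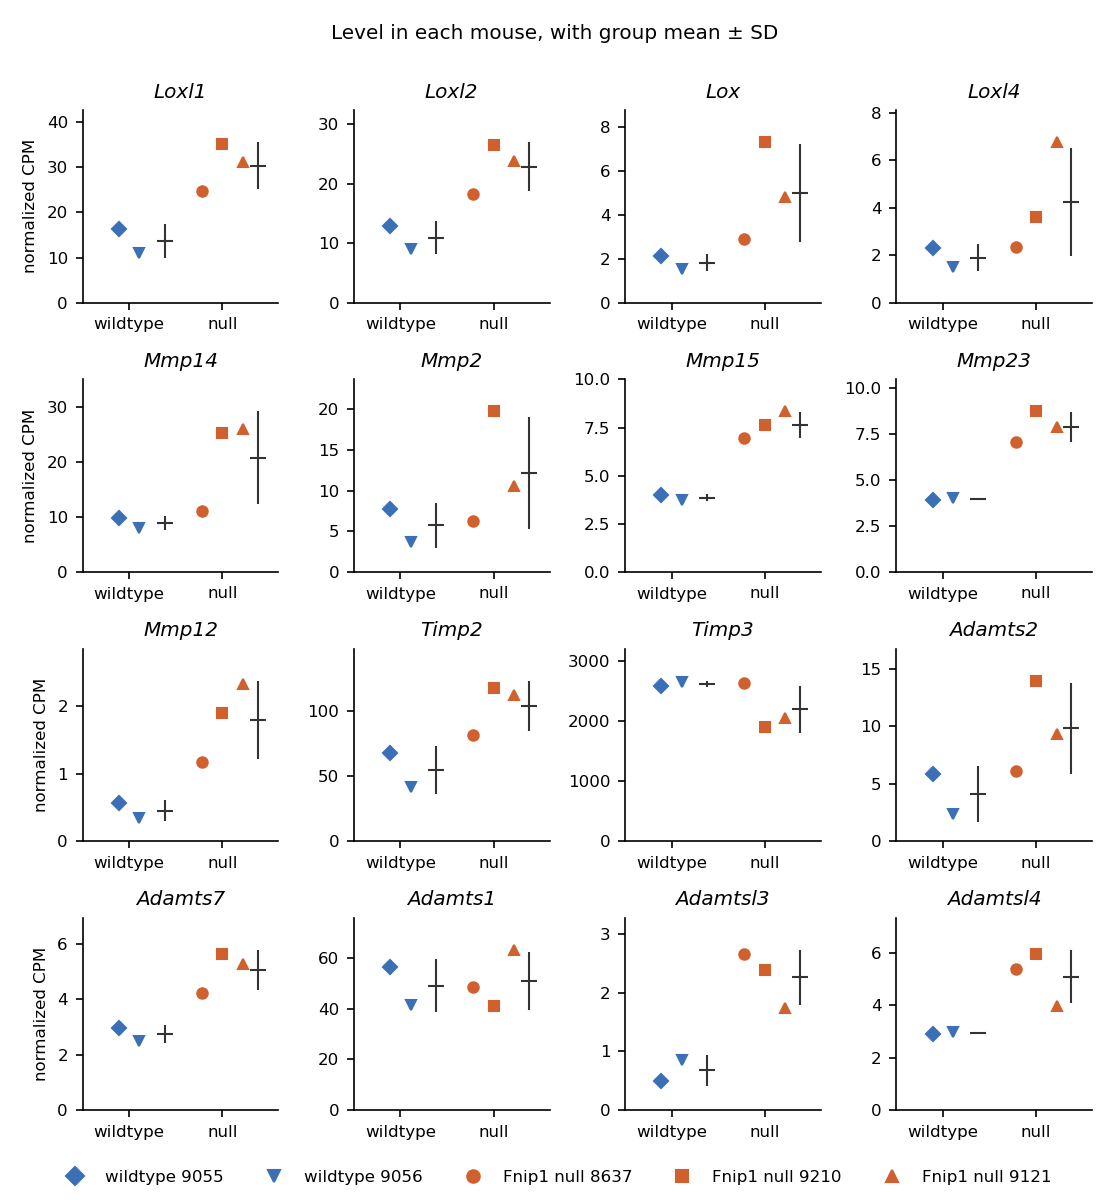
Normalized CPM of 16 members in each mouse (axes from 0), with the group mean ± SD beside the points (wildtype n = 2, *Fnip1* null n = 3). The groups are tight and apart for *Mmp15* and *Mmp23*, whereas for *Mmp14*, *Lox*, *Mmp2* and *Adamts2* mouse 8637 (circle) lies near the wildtype mice, and *Timp3* and *Adamts1* show overlapping groups.

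The inhibitors differed in pattern. *Timp2* (chr11:118301069-118355740, minus strand) had 81.7, 117.6 and 112.8 CPM in null and 67.5 and 41.8 CPM in wildtype mice, so the null mice were all higher. Its log2 fold change was 0.93 ± 0.25 (edgeR quasi-likelihood adjusted p = 0.105, DESeq2 adjusted p = 0.00766). *Timp3* (chr10:86300372-86349506, plus strand), the inhibitor with the highest level, had 2638, 1908 and 2043 CPM in null and 2578 and 2657 CPM in wildtype mice. Mouse 8637 lay between the wildtype mice, the other 2 null mice were lower, and the log2 fold change was -0.25 ± 0.22 (quasi-likelihood adjusted p = 0.51).

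Summed over *Timp1*, *Timp2* and *Timp4*, inhibitor message was 105 ± 20.1 CPM in null (SD, n = 3) and 54.9 ± 18.3 CPM in wildtype mice (n = 2). Summed over all 23 *Mmp* genes it was 47.0, 85.3 and 77.8 CPM in null mice 8637, 9210 and 9121 and 38.8 and 31.2 CPM in wildtype 9055 and 9056. The ratio of the group means was 1.92 for those inhibitors and 2.00 for the metalloproteinases. The inhibitor sum was nearly all *Timp2*, with means of 104 CPM in null and 54.7 CPM in wildtype mice, so its ratio describes that gene. With *Timp3* included, the inhibitor sum had a ratio of 0.861.

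The ADAMTS proteases are given by their known substrates, and no test compared these classes. The 3 procollagen N-proteinases, which remove the amino-terminal propeptide of fibrillar collagens, all had higher values in every null mouse than in either wildtype mouse. That held for 22.9% of all genes tested. *Adamts2* (chr11:50602084-50807573, plus strand) had 6.13, 13.97 and 9.35 CPM in null and 5.84 and 2.40 CPM in wildtype mice, a log2 fold change of 1.26 ± 0.48 (edgeR quasi-likelihood adjusted p = 0.175) that was 2.02 without wildtype 9055 and 0.74 without wildtype 9056. *Adamts3* had 1.41, 1.78 and 1.27 CPM against 0.808 and 0.629 CPM (log2 fold change 1.04), and *Adamts14* had 3.30, 3.51 and 2.90 CPM against 2.42 and 1.83 CPM (log2 fold change 0.61). None of the 3 was called at an FDR of 5% by quasi-likelihood, by the exact test or by DESeq2.

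*Adamts7* and *Adamts12*, which cleave cartilage oligomeric matrix protein, also had non-overlapping groups. *Adamts7* (chr9:90163069-90208071, plus strand) had 4.24, 5.65 and 5.28 CPM in null and 2.98 and 2.52 CPM in wildtype mice, a log2 fold change of 0.88 ± 0.22 (edgeR quasi-likelihood adjusted p = 0.102, exact test adjusted p = 0.0386). *Adamts12* had 1.06, 2.73 and 1.69 CPM in null and 0.746 and 0.4004 CPM in wildtype mice, a log2 fold change of 1.67 ± 0.55 (quasi-likelihood adjusted p = 0.141). *Adamts16* had 3.65, 7.55 and 4.28 CPM in null and 2.92 and 2.46 CPM in wildtype mice, a log2 fold change of 0.94, with mouse 9210 well above the rest.

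Of the proteoglycanases, which cleave aggrecan and versican, 5 were tested. The groups overlapped in all 5, as they did in 7509 of the 13874 genes tested, and their median log2 fold change was 0.052. *Adamts4*, a proteoglycanase below the filter, had all null mice above both wildtype mice. *Adamts1* (chr16:85793827-85803113, minus strand), the most abundant ADAMTS, had 48.4, 41.0 and 63.1 CPM in null and 56.5 and 41.6 CPM in wildtype mice. Both groups spanned nearly the same range, with a log2 fold change of 0.05 ± 0.21. *Adamts5*, its neighbour on chromosome 16, had 20.3, 28.3 and 26.2 CPM in null and 21.7 and 11.8 CPM in wildtype mice, a log2 fold change of 0.58 ± 0.28, and *Adamts15* had 15.5, 23.0 and 13.99 CPM in null and 23.6 and 21.2 CPM in wildtype mice, a log2 fold change of -0.36 ± 0.22 (edgeR quasi-likelihood adjusted p = 0.356).

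*Adamts8* was singled out after its values were seen, because 1 mouse set its sign. It had 2, 8 and 54 counts in null mice 8637, 9210 and 9121 and 10 and 16 counts in wildtype 9055 and 9056. The log2 fold change of 0.61 ± 1.08 became -1.36 without mouse 9121 (edgeR quasi-likelihood adjusted p = 0.317). *Adamts13*, which trims von Willebrand factor, had 5.01, 4.99 and 4.44 CPM in null and 4.23 and 3.89 CPM in wildtype mice, a log2 fold change of 0.25 ± 0.18. The ADAMTS proteases tested and not described here (*Adamts6*, *Adamts9* and *Adamts10*) had log2 fold changes of -0.14 to 0.44, and only in *Adamts10* did the groups not overlap.

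Of the ADAMTS-like proteins, *Adamtsl3* (chr7:82335694-82614450, plus strand) differed most. It had 2.65, 2.38 and 1.74 CPM in null and 0.497 and 0.858 CPM in wildtype mice, a log2 fold change of 1.71 ± 0.38 (edgeR quasi-likelihood adjusted p = 0.0832, DESeq2 adjusted p = 0.021). In contrast to the lysyl oxidases and *Mmp14*, mouse 8637 was the highest here, and the log2 fold change was 1.87 without 9121.

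*Adamtsl4*, which binds fibrillin microfibrils, had 5.36, 5.95 and 3.96 CPM in null and 2.92 and 2.97 CPM in wildtype mice, a log2 fold change of 0.78 ± 0.24. *Adamtsl5* had 2.18, 3.98 and 3.17 CPM in null and 1.68 and 1.49 CPM in wildtype mice, a log2 fold change of 0.97. In both genes the groups did not overlap. *Adamtsl2*, the most abundant of the family and another microfibril-associated protein, had 19.3, 20.2 and 12.4 CPM in null and 13.9 and 17.2 CPM in wildtype mice, and the groups overlapped. They also overlapped in *Adamtsl1*, with a log2 fold change of 0.48 ± 0.34.

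A tandem cluster of 10 *Mmp* genes on chromosome 9 (chr9:7272514-7699585, 427 kb, GRCm38) held *Mmp12*, the tested member with the largest fold change, and several members at or near 0. *Mmp12*, the macrophage elastase, had 20, 32 and 44 counts in null mice 8637, 9210 and 9121 and 9 and 6 counts in wildtype 9055 and 9056. Its log2 fold change was 2.00 ± 0.47 (edgeR quasi-likelihood adjusted p = 0.0914, DESeq2 adjusted p = 0.0256), and 1.77 without 9121. It was the only tested member in which both wildtype mice were under the count minimum. *Mmp13*, a fibrillar collagenase, had 23, 20 and 35 counts in null and 15 and 10 counts in wildtype mice, a log2 fold change of 0.97 ± 0.39, and 0.76 without 9121.

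*Mmp7*, matrilysin, which is known from injured and regenerating tubules, had 10, 10 and 9 counts in null mice and 0 and 0 in wildtype mice. Against the 3 counts that a total of 0 over both wildtype mice allows, the pooled null level of 0.55 CPM was at least 6.16-fold higher, a bound taken over the group that leaves out the counting error of the 29 null counts. *Mmp7* did not pass the count filter, and when all genes with a count were tested its adjusted p was 0.0808 in edgeR's quasi-likelihood test, where 0.667% of 17850 genes were called at an FDR of 5%. *Mmp3*, stromelysin, had 8, 13 and 12 counts in null and 0 and 2 counts in wildtype mice. The ratio of its pooled levels was 10.5, with a 95% counting interval of 2.69 to 90.4, and its adjusted p without a filter was 0.116.

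*Mmp8*, the neutrophil collagenase, had 2, 1 and 2 counts in null and 0 and 0 in wildtype mice, and *Mmp27* and *Mmp20* had at most 1 count in any mouse. *Mmp10*, *Mmp1a* and *Mmp1b* were at 0 in all 5 mice, so a level under the limit of 3 counts was not detectable at this depth. These intervals and limits cover counting error only. In *Mmp7*, 11.5% of the exon sequence overlaps another gene model.

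The start regions of this cluster are shown because its low-count members share letters that the symbols did not select on. Windows of 250 bases before to 50 bases from the start (RefSeq, GRCm38.p6) were analysed for 37 of the 56 members. Those not analysed included *Mmp2*, *Mmp9*, *Mmp19*, *Lox*, *Loxl1*, *Loxl2*, *Loxl3*, *Adamts4* and *Adamts5*. The letters TGAGTCA, those bound by AP-1 (Jun and Fos dimers), were searched on both strands, and the letters TATAAA, those of the core promoter element known to place a start, only on the strand of the gene. Both occurred together, without overlap, in 7 of the 10 cluster genes and in 0.736% of 27025 genes with such a window. Among the other 27 members with a window, 0 held TGAGTCA, where 5.95% of all genes do. The GC box letters GGGCGG, searched on both strands, were in 0 of the 10 cluster genes and in 23 of the other 27 members, against 38.2% of all genes. The 7 windows are given below from 100 bases before to 20 bases into the transcript, 5′ to 3′ on the strand of the gene, with both motifs in capitals (TGACTCA is the same AP-1 letters on the other strand).
Mmp13: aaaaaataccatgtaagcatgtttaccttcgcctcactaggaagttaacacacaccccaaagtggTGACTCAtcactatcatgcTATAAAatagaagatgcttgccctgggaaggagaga
Mmp12: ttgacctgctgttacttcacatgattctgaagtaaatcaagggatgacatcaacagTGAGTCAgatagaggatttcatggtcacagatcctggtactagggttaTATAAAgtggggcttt
Mmp3: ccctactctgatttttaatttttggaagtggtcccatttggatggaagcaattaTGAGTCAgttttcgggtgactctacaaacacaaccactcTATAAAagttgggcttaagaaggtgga
Mmp7: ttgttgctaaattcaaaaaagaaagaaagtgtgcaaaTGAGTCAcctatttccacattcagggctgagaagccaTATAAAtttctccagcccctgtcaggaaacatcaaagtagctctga
Mmp1a: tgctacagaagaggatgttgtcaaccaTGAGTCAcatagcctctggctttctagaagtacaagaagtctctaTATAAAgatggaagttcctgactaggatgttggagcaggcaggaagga
Mmp1b: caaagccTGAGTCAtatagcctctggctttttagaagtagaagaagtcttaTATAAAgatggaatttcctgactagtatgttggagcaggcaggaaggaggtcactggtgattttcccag
Mmp10: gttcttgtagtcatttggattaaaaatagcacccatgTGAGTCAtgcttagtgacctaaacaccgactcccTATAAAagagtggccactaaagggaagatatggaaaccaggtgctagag

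The windows are chr9:7272414-7272533, chr9:7347274-7347393 (its downstream annotated start), chr9:7445722-7445841, chr9:7691990-7692109, chr9:7464041-7464160 and chr9:7502242-7502361 on the plus strand and chr9:7388007-7388126 on the minus strand. Counted from the first transcribed base as 0, the AP-1 letters began at -35 in *Mmp13*, -44 in *Mmp12*, -46 in *Mmp3*, -63 in both *Mmp7* and *Mmp10*, -73 in *Mmp1a* and -93 in *Mmp1b*. TATAAA began at -26 in *Mmp7*, -28 in *Mmp1a* and -29 in *Mmp10*, but at -49 in *Mmp1b*, -16 in *Mmp13*, -7 in *Mmp3* and 4 in *Mmp12*, where it lies within the annotated transcript. *Mmp7* held a further TATAAA upstream of the printed window. The genes with both motifs included the 4 cluster members with the most counts (*Mmp12*, *Mmp13*, *Mmp3* and *Mmp7*), in which all null mice were above both wildtype mice. They equally included the 3 members at 0 in every mouse (*Mmp1a*, *Mmp1b* and *Mmp10*), and *Mmp8* and *Mmp27*, which lack the AP-1 letters, also had all null mice above, at 1 or 2 counts. A match of letters is a description of the window and not evidence that a factor was bound.

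Outside the cluster, other members below the filter included 2 inhibitors. *Timp1* (chrX:20870166-20874735, plus strand), the inducible inhibitor, had 11, 30 and 9 counts in null and 3 and 1 counts in wildtype mice, a ratio of pooled levels of 7.96 with a 95% counting interval of 2.92 to 30.4. *Timp4* had 2, 12 and 3 counts in null and 2 and 1 counts in wildtype mice, and mouse 9210 alone was high in it. *Adamts4* had 9, 12 and 21 counts in null and 7 and 2 counts in wildtype mice, a ratio of 2.97 with an interval of 1.43 to 6.94. Both intervals cover counting error only and leave out the spread between mice. Tested without a filter, *Timp1* had an adjusted p of 0.158 and *Adamts4* of 0.234 in edgeR's quasi-likelihood test.

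**Figure D4:**
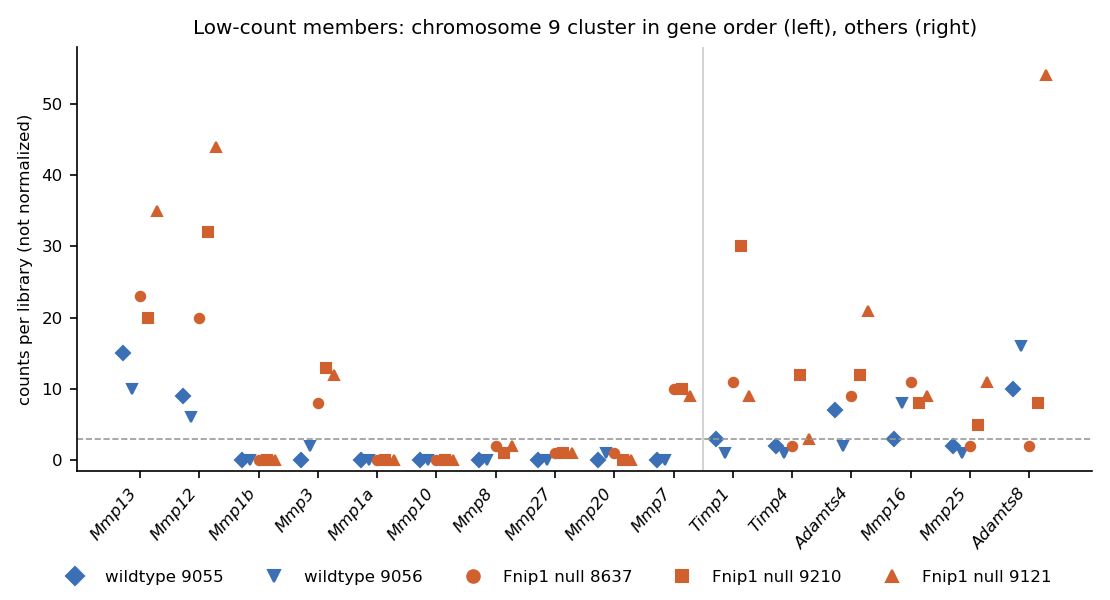
Raw counts in each mouse for the 10 genes of the chromosome 9 *Mmp* cluster in genomic order (left) and 6 other low-count members (right), with a dashed line at 3 counts. Null mice lie above wildtype mice in *Mmp12*, *Mmp13*, *Mmp3* and *Mmp7*, while *Mmp1b*, *Mmp1a* and *Mmp10* are at 0, and *Adamts8* is high in mouse 9121 alone.

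The order of the mice was alike in many members, though not in every family. Mouse 8637 was the lowest of the 3 null mice in 24 of the 37 members tested (64.9%), against 40.4% of all genes tested. This was so in all 5 lysyl oxidases and 9 of 11 *Mmp* genes, but in 7 of 14 *Adamts* and 2 of 5 *Adamtsl* genes. Wildtype 9056 was below 9055 in 26 of 37 (70.3%), against 48.6% of all genes, but in 2 of 5 *Adamtsl* genes. Fibroblast and pericyte markers, summed over 8 genes, gave 289, 537 and 450 CPM in null mice 8637, 9210 and 9121 and 274 and 148 CPM in wildtype 9055 and 9056. Mouse 8637 was the lowest null mouse in 8 of the 8 markers, and 9056 was below 9055 in 7. In 6 of the 8 all null mice were above both wildtype mice, where 22.9% of all genes tested were. This order was not particular to these markers. Mouse 8637 was also lowest in 6 of 7 macrophage, 3 of 4 smooth muscle and 3 of 4 endothelial markers. In those lists 9056 was below 9055 in 7, 4 and 4 markers. In the 5 adipocyte and 3 podocyte markers 8637 was always lowest, but 9056 was below 9055 in 1 each. Mouse 8637 was lowest in 0 of the 3 injured tubule and 0 of the 2 proliferation markers. The part of these lists in the member results was not tested.

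The sums of several other marker lists were higher in every null mouse. For the counts in brackets, 22.9% of all genes tested had all null mice above both wildtype mice and 23% had all below. Podocyte markers summed to 557 to 665 CPM in null and 310 to 314 CPM in wildtype mice, with all 3 genes non-overlapping. Endothelial markers summed to 218 to 290 CPM in null and 121 to 201 CPM in wildtype mice (2 of 4 genes above), and smooth muscle markers to 80.4 to 153 CPM and 60.8 to 68.3 CPM (2 of 4 above). Injured tubule markers summed to 15.0, 10.3 and 3.49 CPM in null mice 8637, 9210 and 9121 and 2.86 and 2.12 CPM in wildtype mice (2 of 3 above). Proliferation markers summed to 13.6 to 28.7 CPM in null and 7.95 to 11.4 CPM in wildtype mice (2 of 2 above). The medulla sum was lower in every null mouse, at 962 to 1168 CPM against 1220 to 1337 CPM in wildtype mice (1 of 3 below). It was nearly all *Aqp1*, with means of 996.5 CPM in null and 1227 CPM in wildtype mice. *Slc14a2* and *Cldn16* overlapped between the groups, and *Cldn16* had means of 11.7 CPM in null and 9.69 CPM in wildtype mice. The cortex tubule sum also overlapped between the groups, although 3 of 6 genes were above (*Slc5a2*, *Slc12a3* and *Aqp2*) and 2 below (*Lrp2* and *Slc34a1*).

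Macrophage, neutrophil and adipocyte markers were summed separately. The same shares of all genes tested, 22.9% above and 23% below, apply to their counts. The macrophage sum of 99.2 to 218 CPM in null overlapped the 103 to 120 CPM of wildtype mice, although 5 of the 7 genes had all null mice above and *Csf1r* had all below. Neutrophil markers were low in absolute terms, at 5.54 to 7.92 CPM in null and 0.629 to 0.932 CPM in wildtype mice, with 4 of 6 genes above and *Camp* at 0 in every mouse. Adipocyte markers were 5.60 CPM in 8637 but 210 CPM in 9210 and 73.0 CPM in 9121, against 4.66 and 10.3 CPM in wildtype mice. The part of these cell types in the member results was not tested.

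**Figure D5:**
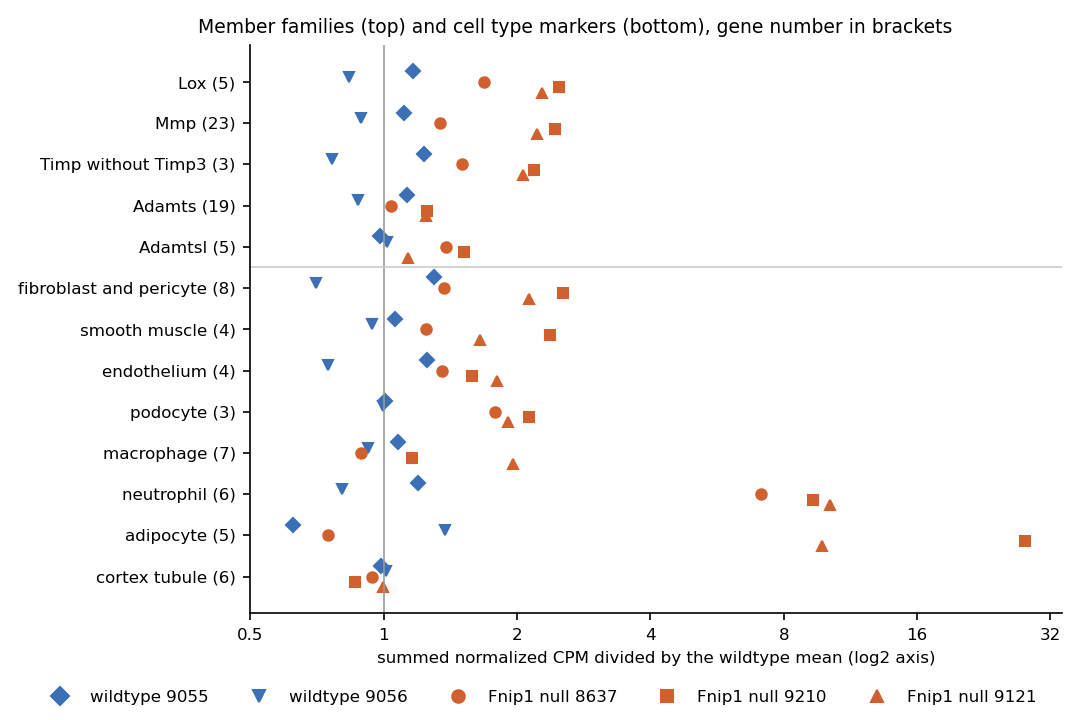
Summed normalized CPM of each member family (top) and marker list (bottom) in each mouse, divided by the wildtype mean, on a log2 axis, with the number of genes in brackets (*Timp3* left out of its family). The *Lox*, *Mmp* and *Timp* sums each order the mice as 9056, 9055, 8637, 9121 and 9210 from low to high. The fibroblast and pericyte sum and the smooth muscle sum have the same order.

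Other genes of pericellular proteolysis and matrix assembly were listed by function, 66 in all, of which 51 were tested. At an FDR of 5% in edgeR's quasi-likelihood test, 1 rose and 1 fell, 2 of 51 against 0.678% of all genes. *Plat*, tissue plasminogen activator, rose by 1.21 ± 0.15 on the log2 scale (adjusted p = 0.0391), with 103, 128 and 98.2 CPM in null and 50.5 and 44.5 CPM in wildtype mice. *Mep1b*, the beta subunit of meprin, a brush border metalloproteinase, fell by 1.12 on the log2 scale (SE 0.14, adjusted p = 0.0406), with 140, 126 and 166 CPM in null and 293 and 332 CPM in wildtype mice. Its partner *Mep1a* had 1652, 1183 and 1041 CPM in null and 2703 and 2752 CPM in wildtype mice (adjusted p = 0.0844). The *Mep1b* call was lost when libraries were scaled by size alone, and both were lost without mouse 9210 or without either wildtype mouse, in fits where 0 of all genes passed that FDR and a 2-fold difference. The log2 fold changes in those fits, of which the last 2 hold 1 wildtype mouse, were 1.08 to 1.30 for *Plat* and -1.21 to -1.03 for *Mep1b*.

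Substrates and partners of the members were also measured. Of 10 elastic fibre and proteoglycan genes tested, 9 had a log2 fold change above 0, all of the elastic fibre, and the only proteoglycan gene tested, *Cspg4*, had -0.11. The median over the 10 was 0.83. *Eln*, which encodes elastin, had 6.78, 15.4 and 9.56 CPM in null and 5.65 and 3.72 CPM in wildtype mice, and *Fbn1*, which encodes fibrillin-1, had 12.4, 24.3 and 20.5 CPM against 11.3 and 6.86 CPM. In both genes the null mice were all above the wildtype mice, with 9210 highest. The 12 genes of collagen maturation tested had a median log2 fold change of 0.10, with 9 above 0 and 3 below. Of the 10 and 12 genes of these classes, 0 were called at an FDR of 5% by the quasi-likelihood fit, where 0.678% of all genes were. The likelihood ratio test and DESeq2 each called 4 genes of the first class and the exact test 1, and these tests called 0 of the second. Over all genes they called 6.81%, 6.26% and 6.18% higher in null mice.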

How the data were processed

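Kidney cortical tissue of 5 mice was sequenced by the authors as paired-end reads from a TruSeq RNA kit, with 1 library per mouse. The authors filtered reads for quality, aligned them to mm10 with TopHat 2.1.0 and counted them per gene with HTSeq 0.6.1. The deposited values are these raw counts, without normalization. Rows that name no gene were left out. They held reads aligned more than once (31.4% of all rows in mouse 8637, 28.3% to 29.0% in the others), reads outside genes (9.91% to 10.8%) and ambiguous reads (0.741% to 0.803%), so reads of near-identical genes are missing.

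The analysis used edgeR 4.0.16 in R 4.3.3. Genes entered the test if at least 3 of the 5 mice had 10 or more counts, modelled on the study's filter. Fits with a mouse left out still allowed 2 mice under 10 counts. After TMM normalization the genotypes were compared by edgeR's quasi-likelihood test, and p-values were adjusted by the Benjamini-Hochberg method over all 13874 of these genes, at an FDR of 5%. Every adjusted p is of this kind unless the exact test or DESeq2 1.42.0 is named. CPM are TMM-normalized, and errors are SE for log2 fold changes and SD for means. The tests were tested on simulated data. There, unchanged genes made up more than 5% of the calls of every test, with the fewest in the quasi-likelihood test. Exon length and positions are from GENCODE M21 on GRCm38, and start windows from RefSeq.

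Members and lists were chosen with earlier results of these data known. Members given values are those past the FDR, those with a mean of at least 0.5 CPM, a log2 fold change of at least 0.6 and non-overlapping groups, a list of well-known members, and the 3 with the highest level per length in each family. Other members are given by range and count, or named after their values were seen. Another 17 settings (tests, normalizations, filters, thresholds, each mouse left out) were tried, and 5 more were added after seeing the data (the filter on the mean count, the exact test without each null mouse, and DESeq2 without 9121).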

Additional observations from a re-analysis of the deposited data

How the results depend on the processing

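Members past an FDR of 5% numbered 0 in the quasi-likelihood test and with its legacy form, the other normalizations and the other filters. The count was 10 with the exact test, 11 with the likelihood ratio test, 9 with DESeq2 and 6 at an FDR of 10%. With a 2-fold threshold as well these were 6, 7, 6 and 4. At an FDR of 5% and 2-fold, the exact test called 424 of 13874 genes higher in null mice. The likelihood ratio test called 477 of 13874 and DESeq2 362 of 13604. At the FDR alone the 4 settings called 6.18%, 6.81%, 6.26% and 4.15% of all genes higher in null mice. Leaving out 1 null mouse gave 0 to 16 members, where 0% to 10% of all genes were called higher. With 2-fold as well it gave 0 to 13 members, where 0 to 670 genes were called higher. By the exact test, leaving out 1 null mouse gave 3 to 21 members, where 2.19% to 14.1% of all genes were called higher. The fits without 8637 and without 9121 called members that met the filter through the null mice alone. DESeq2 without 9121 gave 3. For the 51 related genes tested, 2 in the quasi-likelihood test, the counts were 5, 8, 9 and 4 in the same order. Of these, 2, 5, 6 and 1 were higher in null mice, against 6.18%, 6.81%, 6.26% and 4.15% of all genes, and the rest were lower. At an FDR of 10%, 938 of 13874 genes passed in either direction. The share of all genes called lower was not computed for the other tests at an FDR of 5%. The count was 1 with library size only and 0 to 22 when 1 null mouse was left out. Of the 22, found without 8637 among 55 related genes tested, 13 were higher, against 10% of all genes, and 9 lower. Over all genes, 73 passed the FDR and 2-fold in the quasi-likelihood test, 570 in the exact, 628 in the likelihood ratio test and 482 with DESeq2, and 0 to 963 when 1 mouse was left out. The cause of these differences was not tested.

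Library size alone shifted the median log2 fold change of all genes to 0.167 and that of the members to 1.09. Over 29 named members and 493 values under alternative settings, the direction turned for *Adamts1*, at -0.13 without 9121 and -0.16 without wildtype 9056 (-0.16 to 0.28 over the mice left out). Over all 37 tested members, those above 0 fell from 34 to 32 without 9121 or 9056. Members under 3 counts per mouse were below what this depth can show. No paired analysis was possible because the groups share no replicate numbers.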
